A study of Mus musculus with 10 samples.

Results

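LPS, the bacterial cell wall lipid that sets off innate immunity, and norepinephrine, the transmitter of the sympathetic nerves that serve fat, were compared directly in mouse cells grown from inguinal fat. The comparison takes the 2 libraries titled LPS and the 2 titled Norepinephrine, 4 of the 10 libraries of the series, chosen by their titles alone. It covers the 13294 of 28987 listed genes that reached at least 1 TPM (a relative abundance: the share of a library's transcripts that come from a gene, scaled to one nominal total) in at least 2 of these 4 libraries. LPS was given at 100 ng/ml and norepinephrine at 1 mM, each for 24 h, and the saline controls were kept for the same 24 h. All cells came from male C57BL/6 mice aged 6 to 8 weeks, from digested inguinal fat pads, and were grown to confluence before treatment. No genotype other than this strain and no genetic change is given. The source is called primary white adipocytes, while the treatment text speaks of white adipose tissue, and no step of adipocyte differentiation is described. The series as a whole concerns the cytokines BAFF and APRIL in diet-driven weight gain, and its design text counts the other treatments among several controls. Nothing in the labels ties the 2 libraries of a treatment to separate animals or dishes, so p-values reflect no more than the variation between these libraries, which could be technical.

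The 2 stimuli act through different receptors. LPS binds Toll-like receptor 4 and its partner MD-2, whose adaptors release NF-kB and induce chemokines, cytokines and acute-phase proteins. Norepinephrine acts in mouse white fat mainly through the beta-3 adrenergic receptor, which raises cyclic AMP and activates protein kinase A. That kinase drives lipolysis, the breakdown of stored triglyceride, and in thermogenic adipocytes also the heat-producing program around the uncoupling protein UCP1.

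Differences are given as LPS minus norepinephrine on the log2(TPM + 1) scale with their standard errors, so a positive value means a higher level with LPS and a value of 1 is close to 2-fold. The scale understates changes of genes with low TPM. They were tested with limma, with the spread estimated from 8 libraries (LPS, norepinephrine, saline and BAFF at 500 ng/ml) and Benjamini-Hochberg adjustment over all 13294 genes. Each library summed to between 958126 and 964726 TPM over these 8, and read depth is unknown, as no counts were used. The 2 libraries labelled APRIL were kept out of the spread, since their summed Y-linked transcripts (Ddx3y, Eif2s3y, Kdm5d, Uty) came to 0.489 and 0.775 TPM, against 93.8 to 123 TPM in the other 8, which goes against the label male. The fit of all 10 libraries, where it changes a call or a count by over 1.5 times, is given beside the result.

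Across all tested genes, most lay close between the 2 stimuli, and the differences that passed the test were more often lower with LPS, while the steepest ones were higher with LPS. By limma, 821 genes (6.18% of the 13294) were higher and 1416 (10.7%) lower with LPS at an adjusted p under 0.05, and 302 (2.27%) and 318 (2.39%) of these differed by at least 2-fold on this scale. For 10429 genes (78.4%) the 95% interval of the difference lay within 2-fold either way, and for 6433 (48.4%) within 1.5-fold. The median difference over all tested genes was -0.04. Scaling the libraries by median ratios gave 1188 higher and 1203 lower, so the excess of lower genes depends on the scaling. The counts fell to 532 higher and 632 lower in the fit of all 10 libraries, to 277 and 470 from the 4 libraries alone, and to 126 and 122 when tested against a minimum of 1.5-fold. Norepinephrine replicate 1 carried the most weight, with 368 higher and 649 lower without it, while the lower genes numbered 708 without norepinephrine replicate 2 and 871 without LPS replicate 1.

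**Figure D1:**
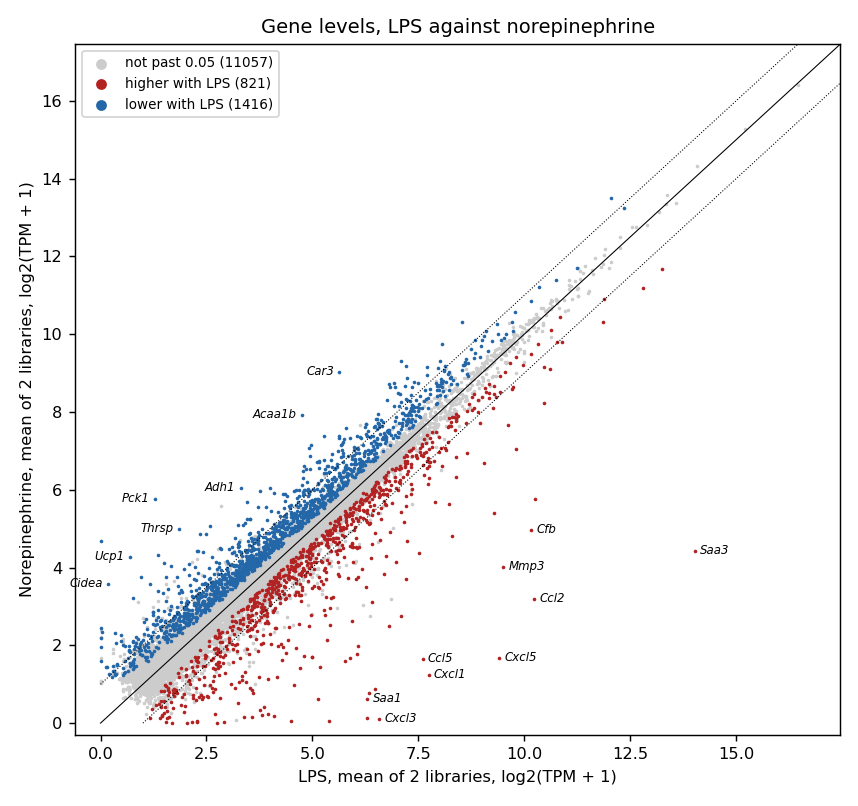
Each point is 1 of the 13294 tested genes, with its mean level over the 2 LPS libraries on the horizontal axis and over the 2 norepinephrine libraries on the vertical axis, both as log2(TPM + 1). The solid line marks equal levels, dotted lines mark a log2 difference of 1 either way, red points are the 821 genes higher with LPS, blue points the 1416 genes lower with LPS (adjusted p under 0.05, limma), and a selection of the genes with the largest differences is named. The red points reach farther from the line than the blue ones, with Saa3 at a log2 difference of 9.60, the pseudogene Gm6025 at -4.69 and Pck1 at -4.49.

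Markers of several cell types were present, and they moved with treatment and with replicate number. The 6 adipocyte markers were found in every library, as the label has it. They summed to 4724 and 5304 TPM with LPS, against 13154 and 13675 TPM with norepinephrine and 6819 and 7871 TPM with saline, with Fabp4 the bulk of each sum. All 6 passed as lower with LPS, and 1 in the fit of all 10 libraries. In bulk RNA, fewer cells of a type and less RNA per cell cannot be told apart, and the part of this shift in the lower lipid and mitochondrial genes was not tested. The 18 macrophage markers summed to 2037 and 514 TPM with LPS, against 1657 and 390 TPM with norepinephrine and 1651 and 586 TPM with saline, so replicate 1 held the larger sum in every group, with Lyz2 the most abundant. Between libraries of the same number the sum was higher with LPS than with norepinephrine. None of the markers was at 0 in all 4 libraries, but Ptprc, the leukocyte protein CD45, was at 0 in replicate 2 of both stimuli. Of the 16 tested 0 passed in either direction by limma. Groups overlapped in 14 and lay apart as higher with LPS in 2 and as lower in 0. Over all tested genes they lay apart as higher in 22.7% and as lower in 33.3%. Skeletal muscle markers ran the other way, with 16.0 and 121 TPM with LPS, against 23.5 and 183 TPM with norepinephrine and 16.3 and 138 TPM with saline. Preadipocyte and fibroblast markers summed to 11294 and 10495 TPM with LPS, against 10254 and 8827 TPM with norepinephrine, and 4 of 13 tested were higher (2 from the 4 libraries alone) and 1 lower. Among all tested genes 6.18% were higher and 10.7% lower. Pdgfra, the receptor that marks fat progenitors, had 124 and 135 TPM with LPS, against 53.1 and 74.3 TPM with norepinephrine (log2 difference 1.03 ± 0.16, adjusted p = 0.00841), whereas Gsn, an actin-severing protein of fibroblasts, had 697 and 642 TPM in the LPS libraries and 1072 and 967 TPM in the norepinephrine libraries (log2 difference -0.60 ± 0.09, adjusted p = 0.00679). The call for Gsn missed the threshold in the fit of all 10 libraries (adjusted p = 0.0528). Smooth muscle and pericyte markers summed to 1127 and 1311 TPM with LPS, against 941 and 1124 TPM with norepinephrine and 1560 and 1689 TPM with saline. Of the 10 tested 0 passed as higher and 1 as lower with LPS, and their median log2 difference was -0.35, so the sum and the median pointed opposite ways. Neutrophil and mast cell markers summed to 23.4 and 16.7 TPM with LPS, against 10.7 and 8.85 TPM with norepinephrine, with S100a9 at 0 in all 4. In these sums 1 marker alone reached 19.5 TPM. Of the 3 tested 1 passed as higher with LPS, while groups lay apart as lower in 2 (median log2 difference -0.30). The higher count was 0 with a pseudocount of 0.1 or 0.5 and with no filter. Erythroid, B-cell and T-cell sums did not exceed 7.22 TPM in any of these 4. The part of these cells in the differences between the stimuli was not tested. The 12 largest differences of named genes in each direction were called whichever library was left out.

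**Figure D2:**
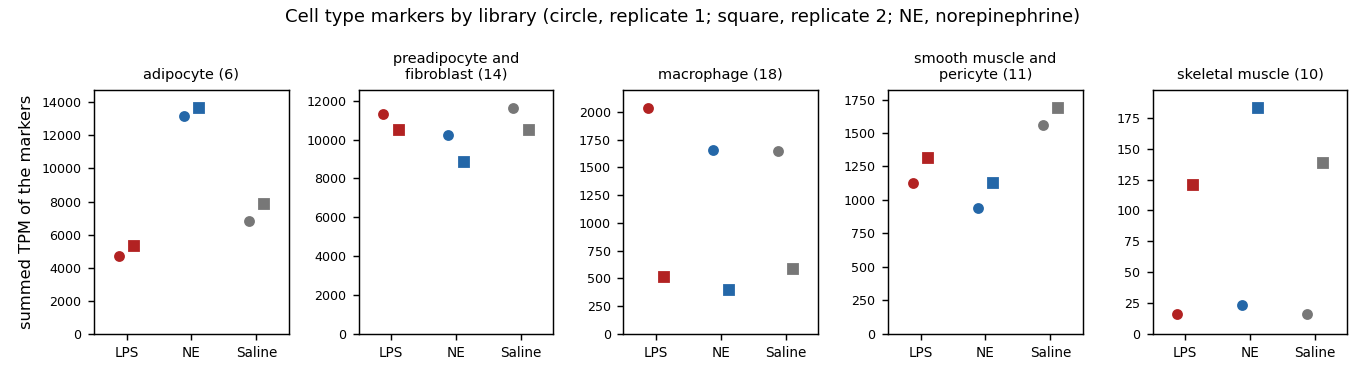
Summed TPM of 5 marker lists in each library, with the number of markers in brackets, LPS, norepinephrine (NE) and saline from left to right, circles for replicate 1 and squares for replicate 2, on linear axes that start at 0. The adipocyte sum, the bulk of it Fabp4, separates the norepinephrine libraries from the rest, at 13154 and 13675 TPM. Of the 6 adipocyte markers 3 passed as higher than saline with norepinephrine, where 5.33% of all tested genes did. Macrophage and skeletal muscle markers separate replicate 1 from replicate 2 in each group.

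Both receptor systems were present. Tlr4, the LPS receptor, had 16.8 and 14.3 TPM with LPS, against 14.0 and 11.8 TPM with norepinephrine, with no difference past the threshold by limma (log2 difference 0.25 ± 0.13, adjusted p = 0.219). Saline libraries had 10.5 and 11.7 TPM of it. Adrb3, the beta-3 adrenergic receptor, had 51.6 and 49.9 TPM in the LPS libraries and 149 and 137 TPM in the norepinephrine libraries (log2 difference -1.47 ± 0.13, adjusted p = 0.00151). The 2 LPS libraries lay far below both norepinephrine libraries and below the saline libraries at 119 and 141 TPM, with log2 -1.33 against saline under LPS (adjusted p = 0.00345) and log2 0.14 under norepinephrine (adjusted p = 0.552). Adra2a, an inhibitory adrenergic receptor, was scarce, at 0.545 to 2.30 TPM in the 4 libraries, with overlapping groups. Adra1a, Adra1b and Adrb1 were below the level for testing, Adrb1 at 0.150 and 0.301 TPM with LPS, against 0.558 and 1.05 TPM with norepinephrine.

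The largest difference of the whole comparison was that of Saa3 (ENSMUSG00000040026, mm10 chromosome 7, 46711998 to 46715700, minus strand), which encodes an acute-phase apolipoprotein made by adipocytes and macrophages. It had 19770.0 and 14091 TPM with LPS, against 29.7 and 14.1 TPM with norepinephrine, a log2 difference of 9.60 ± 0.76 (adjusted p = 0.00122). Both LPS libraries stood far above both norepinephrine libraries, and the saline libraries held 165 and 45.6 TPM. The next were chemokines, secreted proteins that draw leukocytes. Cxcl5, a neutrophil attractant, had 595 and 774 TPM in the LPS libraries and 1.34 and 3.35 TPM in the norepinephrine libraries (log2 difference 7.73 ± 0.34, adjusted p = 0.000344). Ccl2, the main attractant of monocytes, had 1223 and 1164 TPM with LPS, against 5.11 and 12.7 TPM with norepinephrine (log2 difference 7.03 ± 0.45, adjusted p = 0.000627), where the saline libraries had 56.1 and 34.4 TPM. Cxcl1, another neutrophil attractant, had 209 and 217 TPM under LPS, compared with 1.34 and 1.35 TPM under norepinephrine (log2 difference 6.51 ± 0.12, adjusted p = 8.64e-06). In all of these genes both LPS libraries lay above every norepinephrine and saline library. Cxcl3 (log2 6.47), the pyrogenic cytokine gene Il1b (6.17), the T-cell attractant Ccl5 (5.94), the acute-phase genes Saa1 (5.68) and Saa2 (5.59), the interferon-induced chemokine Cxcl9 (5.57), the matrix protease Mmp3 (5.50) and complement factor B, Cfb (5.20), completed the 12 largest among genes with a name and a mean of at least 5 TPM, and all 12 passed under every alternative run. Saa1 and Saa2 are near copies of each other, so the split of reads between them is uncertain. Within the LPS pair, Cxcl3, Il1b, Ccl5 and Mmp3 were more than 2-fold higher in replicate 1, the library with the macrophage marker sum of 2037 TPM against 514 TPM in replicate 2. Cxcl5 and Cxcl1 were higher in replicate 2. Any tie to the macrophage sum was not tested.

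Among the searched promoters of these 12 genes, the 3 with a motif and the largest differences are printed because they are the start sites from which the steepest LPS transcripts are read. The sequences are from RefSeq on build GRCm38.p6, from 250 bases before the start to 50 after it, 5′ to 3′ on the gene's strand. Capitals mark a match, on either strand, to GGGA followed by any 2 bases and TTCC (NF-kB), TTGCNNAA (the C/EBP core), TGACGTCA (the cyclic AMP response element, CRE) or the short CRE core ACGTCA. The short core lies inside the full element and was added after values were seen. Of the 12 genes 8 were searched, and Cxcl5, Ccl2, Ccl5 and Cfb were not. Saa3 lies at chr7:46715627-46715926 on the minus strand, Cxcl1 at chr5:90890995-90891294 and Cxcl3 at chr5:90785851-90786150, both on the plus strand.
Saa3: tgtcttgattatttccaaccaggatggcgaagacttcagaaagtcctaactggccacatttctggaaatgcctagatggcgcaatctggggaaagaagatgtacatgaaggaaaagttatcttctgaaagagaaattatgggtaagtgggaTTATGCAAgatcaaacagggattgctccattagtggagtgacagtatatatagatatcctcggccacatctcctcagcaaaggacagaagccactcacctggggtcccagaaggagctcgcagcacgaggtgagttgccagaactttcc
Cxcl1: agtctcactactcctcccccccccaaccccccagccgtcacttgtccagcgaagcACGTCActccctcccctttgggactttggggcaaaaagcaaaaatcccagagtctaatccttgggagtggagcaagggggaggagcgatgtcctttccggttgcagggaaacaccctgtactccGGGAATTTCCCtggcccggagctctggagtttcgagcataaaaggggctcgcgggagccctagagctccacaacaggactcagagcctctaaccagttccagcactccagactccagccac
Cxcl3: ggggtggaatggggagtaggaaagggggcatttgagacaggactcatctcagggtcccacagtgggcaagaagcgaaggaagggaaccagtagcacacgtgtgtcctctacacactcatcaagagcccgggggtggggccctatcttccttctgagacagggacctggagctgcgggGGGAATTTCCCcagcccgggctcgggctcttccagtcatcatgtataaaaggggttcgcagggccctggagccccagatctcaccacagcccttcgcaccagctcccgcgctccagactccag
The Saa3 window holds a C/EBP core 99 bases before the start. Cxcl1 and Cxcl3 hold the same run of letters, read as NF-kB on both strands in overlapping matches, at 71 and 73 bases before the start, and Cxcl1 also holds a short CRE core. NF-kB letters stood in 14 of 212 promoters (6.6%) of genes at least 2-fold higher with LPS and in 4 of 218 (1.83%) of genes at least 2-fold lower, against 137 of 9658 (1.42%) of all tested genes matched to a promoter. The C/EBP core stood in 42 (19.8%) and 12 (5.5%) of the same 2 sets, against 791 (8.19%) of all. A match describes letters, not binding.

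Inflammatory lists held many members higher with LPS and few or none lower, where 6.18% of all tested genes were higher and 10.7% lower. A gene below 1 TPM in both libraries of 1 group entered the test through the other alone and could only come out higher there. Of 11 tested CXC chemokines 9 were higher and 0 lower, with a median log2 difference of 3.66 where the median over all genes was -0.04. Cxcl12, the stromal chemokine that holds leukocyte progenitors, was already abundant and had 857 and 721 TPM with LPS, against 188 and 215 TPM with norepinephrine (log2 difference 1.96 ± 0.11, adjusted p = 0.000465). Its saline level of 208 and 208 TPM was close to that with norepinephrine. Of 14 CC and CX3C chemokines 9 were higher and 0 lower (median 2.99). Ccl19, a ligand of the homing receptor CCR7, had 28.8 and 17.7 TPM in the LPS libraries and 0.627 and 1.38 TPM in the norepinephrine libraries (log2 difference 3.58 ± 0.38, adjusted p = 0.00252). Of 15 interleukins and other cytokines 8 were higher and 0 lower (median 0.98). Il6, the inducer of the hepatic acute-phase response, had 177 and 102 TPM with LPS, against 5.65 and 5.88 TPM with norepinephrine (log2 difference 4.33 ± 0.28, adjusted p = 0.000627). The saline libraries, at 3.98 and 6.06 TPM, lay to either side of the norepinephrine libraries. The alarm cytokine gene Il1a had 17.5 and 12.1 TPM under LPS, compared with 0.213 and 0.128 TPM under norepinephrine (log2 difference 3.73 ± 0.20, adjusted p = 0.000421). The granulocyte growth factor gene Csf3 had 17.0 and 9.99 TPM with LPS, against 0.277 and 0.0601 TPM with norepinephrine (log2 difference 3.59 ± 0.25, adjusted p = 0.000906). All 3 were low in every library without LPS. Tnf, a cytokine that activates endothelium and leukocytes, did not pass (log2 difference 0.96 ± 0.35, adjusted p = 0.113), at 2.1 and 1.96 TPM in the LPS libraries and 0.818 and 0.329 TPM in the norepinephrine libraries. Il1a, Csf3 and Tnf were below 1 TPM in both norepinephrine libraries, so they entered the test through LPS alone. The cytokine count was 5 from the 4 libraries alone and 5 without LPS replicate 1.

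Signalling genes were less uniform. Of 37 tested genes of the Toll-like receptor and NF-kB pathway 16 were higher and 0 lower with LPS (median 0.32), and 20 had their 95% interval within 2-fold. The shares over all tested genes were 6.18% higher, 10.7% lower and 78.4% within 2-fold. The 4 members of smallest p are known NF-kB targets or feedback inhibitors. Irak3, a kinase-dead brake on Toll-like receptor signalling, had 50.1 and 44.6 TPM with LPS, against 13.1 and 13.4 TPM with norepinephrine (log2 difference 1.76 ± 0.11, adjusted p = 0.000551). Tnip1, a partner of the ubiquitin editor A20, had 120.2 and 93.6 TPM in the LPS libraries and 20.5 and 17.2 TPM in the norepinephrine libraries (log2 difference 2.43 ± 0.16, adjusted p = 0.000703). Nfkbiz, an inducible nuclear IkB protein, had 24.6 and 27.3 TPM under LPS, compared with 10.1 and 9.53 TPM under norepinephrine (log2 difference 1.31 ± 0.10, adjusted p = 0.00122). The mitochondrial superoxide dismutase Sod2 had 218 and 208 TPM with LPS, against 98.8 and 93.2 TPM with norepinephrine (log2 difference 1.14 ± 0.08, adjusted p = 0.000906), and it was the 1 list member that also passed as higher with norepinephrine than with saline (50.2 and 45.3 TPM). Named after their values were seen, the upstream genes Myd88, Irak1, Traf6 and Ikbkb, adaptors and kinases between receptor and NF-kB, lay between log2 0.01 and 0.27 with no call.

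Acute-phase proteins and innate effectors gave 19 higher and 0 lower of 26 (median 1.80), where 6.18% of all tested genes were higher and 10.7% lower. Lcn2, which binds bacterial siderophores, had 1178 and 1243 TPM with LPS, against 31.5 and 90.1 TPM with norepinephrine (log2 difference 4.48 ± 0.42, adjusted p = 0.00182), and both norepinephrine libraries were above the saline libraries at 22.6 and 23.8 TPM. Lbp, the protein that hands LPS to its receptor, had 279 and 315 TPM in the LPS libraries and 52.5 and 45.6 TPM in the norepinephrine libraries (log2 difference 2.57 ± 0.19, adjusted p = 0.00113). Acod1, which makes itaconate, had 32.2 and 14.3 TPM with LPS, against 0.0555 and 0.0301 TPM with norepinephrine (log2 difference 4.43 ± 0.35, adjusted p = 0.00121). It entered the test through LPS alone. Nos2, which makes nitric oxide in inflamed cells, was named after its values were seen. It had 94.3 and 47.5 TPM under LPS, compared with 13.5 and 11.4 TPM under norepinephrine (log2 difference 2.34 ± 0.36, adjusted p = 0.00787), and with norepinephrine it was itself above saline (2.30 and 1.05 TPM, log2 2.37, adjusted p = 0.0192). The ribonuclease Zc3h12a, a brake on cytokine transcripts also named after its values were seen, showed the same order, at 64.5 and 69.7 TPM in the LPS libraries and 21.4 and 23 TPM in the norepinephrine libraries, and at 10.9 and 6.96 TPM with saline. Of 19 complement genes 7 were higher and 2 lower, the lower ones at a share near the 10.7% of all tested genes. C3, the central component, had 562 and 505 TPM with LPS, against 119.6 and 87.8 TPM with norepinephrine (log2 difference 2.37 ± 0.20, adjusted p = 0.00138). C2, of the classical pathway, had 134 and 151 TPM in the LPS libraries and 32.8 and 37.2 TPM in the norepinephrine libraries (log2 difference 2.0 ± 0.09, adjusted p = 0.00039). The 2 lower members were Cfd (adipsin), an adipocyte product, and the membrane regulator Cd55, a count that was 1 in the fit of all 10 libraries, from the 4 libraries alone and without LPS replicate 2.

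Antigen presentation by MHC class I was higher with LPS across the list, with 17 of 21 tested genes higher and 0 lower (median 0.85). Shares over all tested genes, for this and the next lists, were 6.18% higher and 10.7% lower. The heavy chain H2-K1 had 1589.9 and 1266 TPM with LPS, against 548 and 587 TPM with norepinephrine (log2 difference 1.32 ± 0.14, adjusted p = 0.00252). Tapbp (tapasin), which helps load peptides, had 682 and 558 TPM in the LPS libraries and 286 and 263 TPM in the norepinephrine libraries (log2 difference 1.17 ± 0.14, adjusted p = 0.00336). The immunoproteasome subunit Psmb10 had 58.6 and 58.0 TPM with LPS, against 19.9 and 25.1 TPM with norepinephrine (log2 difference 1.35 ± 0.14, adjusted p = 0.00229). Erap1, which trims peptides, differed by log2 1.14 ± 0.09. Class I genes resemble each other, so the level of one heavy chain is uncertain. The count was 7 from the 4 libraries alone and 7 without norepinephrine replicate 1. Of 42 interferon-stimulated genes 9 were higher and 0 lower (median 1.12). The GTPase gene Gbp2 had 99.2 and 104 TPM with LPS, against 9.06 and 19.2 TPM with norepinephrine (log2 difference 2.85 ± 0.31, adjusted p = 0.00285). Irf1, a transcription factor of the interferon response, had 64.2 and 61.6 TPM in the LPS libraries and 30.8 and 32.7 TPM in the norepinephrine libraries (log2 difference 0.97 ± 0.10, adjusted p = 0.00207). In the norepinephrine pair, replicate 2 held more Gbp2, Ifi47 and Rsad2 than replicate 1. The count was 26 without norepinephrine replicate 2, 4 without norepinephrine replicate 1, 5 without LPS replicate 1 and 2 without LPS replicate 2. It was 4 or 5 without any 1 saline or BAFF library and 2 from the 4 libraries alone. Ifi47 (log2 2.14) lost its call without LPS replicate 2 (adjusted p = 0.0856), and Rsad2 (log2 1.6) without LPS replicate 2 (0.0562) or norepinephrine replicate 1 (0.0523). Among 16 genes of metal handling 5 were higher and 1 lower, and 3 were higher without norepinephrine replicate 2 or from the 4 libraries alone, while 0 were lower without any 1 LPS or norepinephrine library. The copper-carrying ferroxidase Cp had 322 and 302 TPM with LPS, against 28.4 and 25.5 TPM with norepinephrine (log2 difference 3.49 ± 0.19, adjusted p = 0.000435). The ferritin chain Fth1 had 9486 and 5412 TPM in the LPS libraries and 2621 and 2098 TPM in the norepinephrine libraries (log2 difference 1.61 ± 0.27, adjusted p = 0.011), a call that ended without norepinephrine replicate 2 (0.0543). The importers Slc39a14 (log2 1.25) and Slc11a2 (log2 1.22) were higher with LPS as well.

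**Figure D3:**
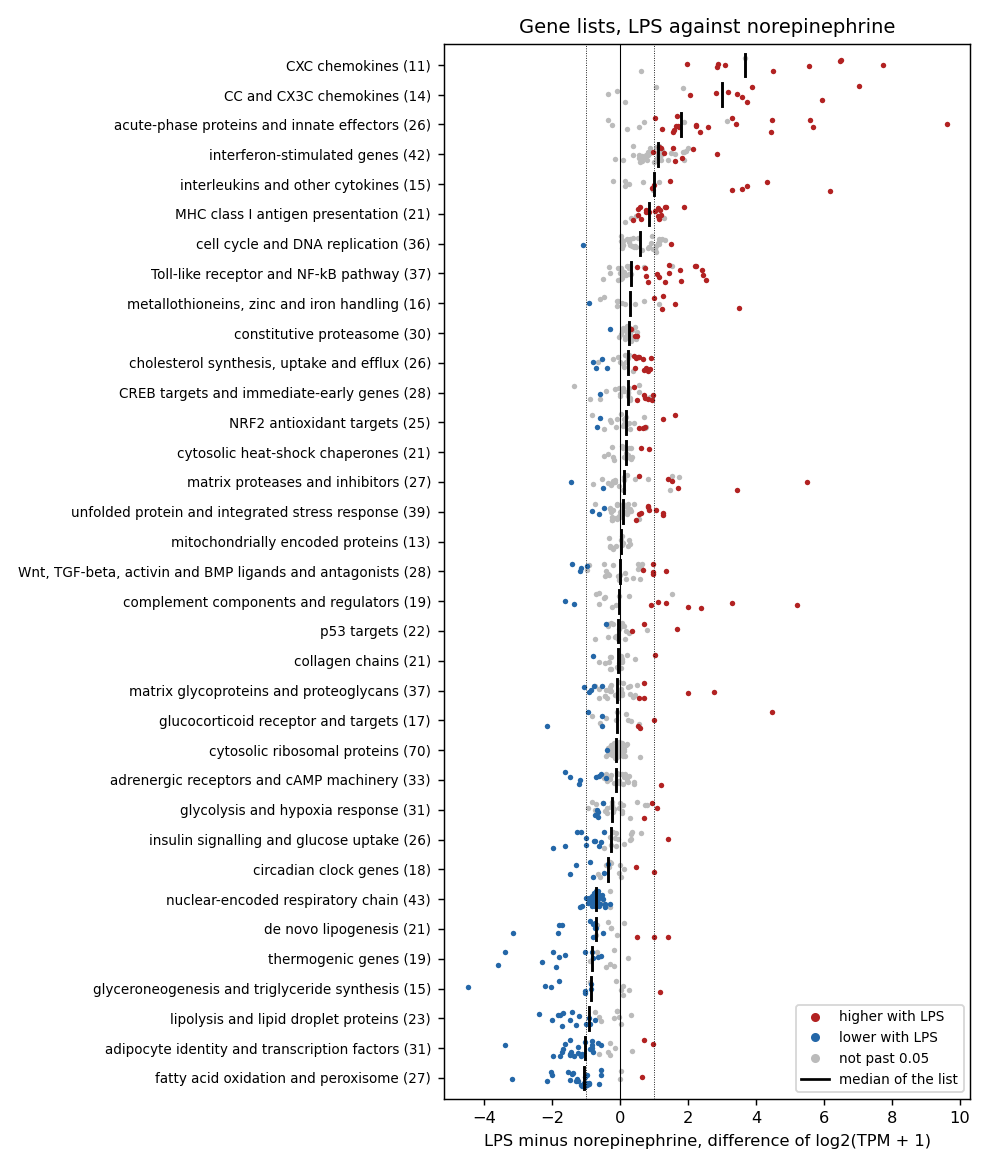
Each row is a gene list with the number of tested members in brackets, each point a member's LPS minus norepinephrine difference on the log2(TPM + 1) scale (vertical scatter within a row has no meaning), and the black bar the median of the list. Red and blue points passed as higher and lower with LPS (adjusted p under 0.05, limma). Lists are ordered by their median, from 3.66 for CXC chemokines at the top to -1.08 for fatty acid oxidation at the bottom, and dotted lines mark a log2 difference of 1 either way.

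The genes lower with LPS were led by metabolic enzymes and thermogenic genes that were high with norepinephrine. Pck1 (ENSMUSG00000027513, mm10 chromosome 2, 173153048 to 173159273, plus strand), which supplies glycerol for the re-esterification of fatty acids, had 1.32 and 1.57 TPM with LPS, against 56.1 and 51.3 TPM with norepinephrine (log2 difference -4.49 ± 0.12, adjusted p = 4.11e-05). The saline libraries held 3.62 and 4.20 TPM, so every LPS library was below and every norepinephrine library above them. Ucp1, the uncoupling protein of thermogenic fat, had 0.972 and 0.309 TPM in the LPS libraries and 12.9 and 26.3 TPM in the norepinephrine libraries (log2 difference -3.60 ± 0.34, adjusted p = 0.00183), and was near 0 with saline (0.0461 and 0.123 TPM). Cidea, a lipid droplet protein of thermogenic adipocytes, had 0.137 and 0.126 TPM with LPS, against 15.1 and 7.71 TPM with norepinephrine (log2 difference -3.39 ± 0.29, adjusted p = 0.00138). Acaa1b, a peroxisomal thiolase with a close relative in Acaa1a, had 29.4 and 22.8 TPM under LPS, compared with 216 and 271 TPM under norepinephrine (log2 difference -3.17 ± 0.36, adjusted p = 0.00307). Car3, the carbonic anhydrase of fat and muscle, had 34.4 and 68.8 TPM in the LPS libraries and 539 and 511 TPM in the norepinephrine libraries (log2 difference -3.40 ± 0.28, adjusted p = 0.00137) but 860.0 and 905 TPM with saline. Both treated groups were below the controls there, with a call against saline for LPS alone. Thrsp, a lipogenic factor, had 2.02 and 3.39 TPM with LPS, against 25.0 and 38.5 TPM with norepinephrine (log2 difference -3.14 ± 0.30, adjusted p = 0.00182), and the saline libraries had 19.1 and 25.2 TPM. By the same rule, which skips pseudogenes and unnamed gene models, the rest of the 12 were Clstn3 (log2 -2.98), whose locus in mouse also gives an adipocyte-specific product, the fatty acid hydroxylase Cyp4b1 (-2.80), the retinol dehydrogenase Adh1 (-2.73), the fatty acid receptor Ffar4 (-2.62), the potassium channel Kcnk3 (-2.49) and Tmem45b (-2.40). All 12 passed under every alternative run.

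Promoters of these 12 genes were searched except those of Car3, Cidea, Kcnk3 and Tmem45b, which had no window. The window matched to Adh1 lies 16594 bases from the annotated start of the gene, so it may not be its promoter. The 2 that hold a searched motif are printed because a CRE is the element through which cyclic AMP signals reach genes. Pck1, at chr2:173152823-173153122 on the plus strand, holds the short CRE core 91 bases before the start. Clstn3, at chr6:124464735-124465034 on the minus strand, holds the full CRE across its start. That window is the one nearest the 5′ end of the whole gene, and gene-level TPM do not tell which product of the locus differed. Capitals mark the matches.
Pck1: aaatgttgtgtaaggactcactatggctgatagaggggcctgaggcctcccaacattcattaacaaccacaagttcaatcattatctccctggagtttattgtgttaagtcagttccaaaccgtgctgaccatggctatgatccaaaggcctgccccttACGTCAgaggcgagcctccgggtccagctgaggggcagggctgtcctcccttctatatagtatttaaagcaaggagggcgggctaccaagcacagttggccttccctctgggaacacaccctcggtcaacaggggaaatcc
Clstn3: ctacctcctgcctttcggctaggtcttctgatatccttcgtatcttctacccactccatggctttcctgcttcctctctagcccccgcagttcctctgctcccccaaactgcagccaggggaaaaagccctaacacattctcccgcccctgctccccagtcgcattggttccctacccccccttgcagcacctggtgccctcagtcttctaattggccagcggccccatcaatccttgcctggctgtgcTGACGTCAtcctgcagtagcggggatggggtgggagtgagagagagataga
The windows of Ucp1, Acaa1b, Thrsp, Cyp4b1, Adh1 and Ffar4 held none of the searched letters. The full CRE stood in 3 of 212 promoters (1.42%) of genes at least 2-fold higher with LPS and in 6 of 218 (2.75%) of genes at least 2-fold lower, against 311 of 9658 (3.22%) of all. The short core stood in 13 (6.13%) and 16 (7.34%), against 1167 (12.1%) of all. None of these shares was above that of all promoters.

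Of the adrenergic and cyclic AMP machinery 33 genes were tested, and 1 was higher and 8 were lower with LPS (median -0.11), with 22 intervals within 2-fold. Among all tested genes 6.18% were higher and 10.7% lower. Phosphodiesterases, which degrade cyclic AMP, went both ways. Pde3b, the insulin-activated isoform of adipocytes, had 33.0 and 34.2 TPM with LPS, against 108 and 102 TPM with norepinephrine (log2 difference -1.61 ± 0.11, adjusted p = 0.000738). Pde4b, an isoform that LPS induces in leukocytes, had 17.4 and 14.4 TPM in the LPS libraries and 5.87 and 6.67 TPM in the norepinephrine libraries (log2 difference 1.21 ± 0.12, adjusted p = 0.00193), and it was the 1 member higher with LPS. Prkar2b, the main regulatory subunit of protein kinase A in fat, had 87.2 and 71.2 TPM under LPS, compared with 179.9 and 186 TPM under norepinephrine (log2 difference -1.20 ± 0.10, adjusted p = 0.0014), a call that missed the threshold in the fit of all 10 libraries (adjusted p = 0.0529). The catalytic subunit Prkaca, the cyclase Adcy6, Pde4a, Rgs2 and Adra1d were the others that were lower. The 8 became 3 in the fit of all 10 libraries, 4 from the 4 libraries alone or without norepinephrine replicate 1, and 5 without LPS replicate 1 or norepinephrine replicate 2. Of 28 early response genes tied to CREB and growth signals 7 were higher and 1 lower with LPS at 24 h (median 0.23). The lower share was below the 10.7% of all tested genes. Jun, an AP-1 subunit, had 39.0 and 40.6 TPM with LPS, against 23.4 and 24.2 TPM with norepinephrine (log2 difference 0.72 ± 0.11, adjusted p = 0.0083). Id2, an inhibitor of differentiation, had 32.4 and 27.0 TPM in the LPS libraries and 18 and 17.7 TPM in the norepinephrine libraries (log2 difference 0.70 ± 0.10, adjusted p = 0.00715). The phosphatase Dusp6 (log2 0.95) and the survival gene Ier3 (log2 0.83) were higher with LPS, and each lost its call without norepinephrine replicate 1 or 2, at adjusted p = 0.0503 to 0.0658. Ier3 also lost it without LPS replicate 1 (0.0534) and in the fit of all 10 libraries (0.104). That count was 3 without norepinephrine replicate 1 and 3 without replicate 2, 4 in the fit of all 10 libraries and 2 from the 4 libraries alone. The 1 lower gene was 0 without any 1 norepinephrine or BAFF library and from the 4 libraries alone.

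Thermogenic genes were lower with LPS in 12 of 19 tested and higher in 0 (median -0.84). Besides Ucp1 and Cidea these included Cox7a1, a cytochrome oxidase subunit of muscle and brown fat, with 114 and 109.9 TPM with LPS, against 433 and 407 TPM with norepinephrine (log2 difference -1.90 ± 0.08, adjusted p = 0.000344). Its saline level of 153 and 146 TPM lay between, nearer to LPS. Ucp2, a relative of Ucp1 found in many tissues, had 168 and 129 TPM in the LPS libraries and 571 and 592 TPM in the norepinephrine libraries (log2 difference -1.98 ± 0.13, adjusted p = 0.000696). Ucp3, the muscle relative, had 1.48 and 1.21 TPM under LPS, compared with 6.56 and 5.83 TPM under norepinephrine (log2 difference -1.62 ± 0.14, adjusted p = 0.00152). Against saline, which both contrasts share, 11 of the 19 passed as higher with norepinephrine and 0 with LPS, where 1 passed as lower. Over all tested genes, 4.81% were higher and 2.47% lower than saline with LPS, and 5.33% higher and 1.24% lower with norepinephrine. Between the stimuli, 6.18% were higher and 10.7% lower with LPS. Ucp1 and Cidea were below 1 TPM in both LPS libraries, so they entered the test through norepinephrine alone and could only come out lower with LPS.

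The lipolysis and lipid droplet list gave 14 lower and 0 higher of 23 (median -0.93), where 10.7% of all tested genes were lower and 6.18% higher. Pnpla2, the lipase ATGL that takes the first fatty acid off triglyceride, had 346 and 392 TPM with LPS, against 1280.2 and 1248 TPM with norepinephrine (log2 difference -1.78 ± 0.16, adjusted p = 0.00149). Saline libraries lay between the groups at 632 and 721 TPM. Lipe, hormone-sensitive lipase, had 122 and 143 TPM in the LPS libraries and 339.7 and 367 TPM in the norepinephrine libraries (log2 difference -1.41 ± 0.13, adjusted p = 0.00151). Mgll, the monoglyceride lipase of the last step, had 27.1 and 28.6 TPM under LPS, compared with 79.7 and 106 TPM under norepinephrine (log2 difference -1.69 ± 0.16, adjusted p = 0.00193). Plin5, which ties droplets to mitochondria, had 1.99 and 2.34 TPM with LPS, against 14.7 and 16.4 TPM with norepinephrine (log2 difference -2.39 ± 0.13, adjusted p = 0.000421). Ces1f, a carboxylesterase gene with close copies, had 2.95 and 2.92 TPM in the LPS libraries and 14.3 and 15.2 TPM in the norepinephrine libraries (log2 difference -2.0 ± 0.10, adjusted p = 0.000421). G0s2, an inhibitor of ATGL, followed the same order, at 120.1 and 122 TPM with LPS, against 309 and 263 TPM with norepinephrine (log2 difference -1.22 ± 0.10, adjusted p = 0.00138), beside 316 and 282 TPM with saline. In the fit of all 10 libraries the 14 became 9, and Pnpla2 (adjusted p = 0.0676) and Lipe (0.175) missed the threshold.

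Apart from the 6 adipocyte markers, fatty acid oxidation was the list with the lowest median, -1.08, with 24 lower and 1 higher of 27. The shares over all tested genes were 10.7% lower and 6.18% higher. Acadl, the long-chain acyl-CoA dehydrogenase, had 159 and 158 TPM with LPS, against 332 and 354 TPM with norepinephrine (log2 difference -1.11 ± 0.07, adjusted p = 0.000627). Hadhb, of the mitochondrial trifunctional protein, had 155 and 179 TPM in the LPS libraries and 406 and 464 TPM in the norepinephrine libraries (log2 difference -1.38 ± 0.11, adjusted p = 0.00124). The thiolase gene Acaa2 differed by log2 -1.41 ± 0.11. Crat, carnitine acetyltransferase, had 99.8 and 115 TPM under LPS, compared with 306 and 325 TPM under norepinephrine (log2 difference -1.55 ± 0.12, adjusted p = 0.00124). Both libraries of each group lay close together in these genes and the groups were well apart. Against saline, 22 of the 27 passed as higher with norepinephrine, and 3 as higher and 1 as lower with LPS. Over all tested genes, 5.33% passed as higher with norepinephrine, and 4.81% as higher and 2.47% as lower with LPS. The 874 genes of all lists and none that passed against saline with norepinephrine became 109 in the fit of all 10 libraries. Named after its values were seen, Cpt1a, the gate of fatty acid entry into mitochondria, had 16.8 and 22.5 TPM with LPS, against 17.2 and 21.8 TPM with norepinephrine, with overlapping groups and no call by limma (log2 difference 0.01 ± 0.18, adjusted p = 0.987). The 1 higher gene, Acsl5, activates fatty acids and had 38.3 and 40.8 TPM in the LPS libraries and 24.0 and 26.3 TPM in the norepinephrine libraries (log2 difference 0.63 ± 0.08, adjusted p = 0.00474), a call absent in the fit of all 10 libraries (adjusted p = 0.116). In that fit 13 genes of the list were lower.

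The respiratory chain split by the genome that encodes it. Of 43 nuclear-encoded subunits 40 were lower and 0 higher with LPS, with a median of -0.70, and in all 43 both LPS libraries lay below both norepinephrine libraries, where 33.3% of all tested genes do. Ndufb10 of complex I had 81.3 and 81.5 TPM with LPS, against 162 and 164 TPM with norepinephrine (log2 difference -1.0 ± 0.08, adjusted p = 0.00131). Uqcrfs1, the Rieske protein of complex III, had 84.3 and 85.6 TPM in the LPS libraries and 159.9 and 169 TPM in the norepinephrine libraries (log2 difference -0.94 ± 0.07, adjusted p = 0.00119). Ndufb9, also of complex I, differed by log2 -0.87 ± 0.07 and missed the threshold in the fit of all 10 libraries (adjusted p = 0.0964). The differences ran from -1.18 to -0.29, and 31 of the 43 had their interval within 2-fold, as did 78.4% of all tested genes. The shares called over all tested genes were 10.7% lower and 6.18% higher with LPS. Against saline 32 of the 43 were higher with norepinephrine and 3 lower with LPS, where 5.33% and 2.47% of all tested genes were. The 13 mitochondrially encoded subunits gave 0 higher and 0 lower, with a median of 0.04, and all 13 intervals lay within 2-fold. The whole share of mitochondrially encoded transcripts was 15.9% and 17.1% with LPS, against 15.9% and 16.9% with norepinephrine, and 20.2% and 22.4% with saline. The 40 became 9 in the fit of all 10 libraries, and 1 when tested against a minimum of 1.5-fold.

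Fat storage lists held more members lower than higher with LPS, where 10.7% of all tested genes were lower and 6.18% higher. Of 15 genes of glyceroneogenesis and triglyceride synthesis 8 were lower and 1 higher (median -0.87). Agpat2, which acylates lysophosphatidic acid, had 128 and 145 TPM with LPS, against 605 and 669 TPM with norepinephrine (log2 difference -2.22 ± 0.18, adjusted p = 0.00122). Lpin1, a phosphatidate phosphatase, had 15.6 and 14.4 TPM in the LPS libraries and 63.7 and 65.2 TPM in the norepinephrine libraries (log2 difference -2.03 ± 0.10, adjusted p = 0.00039). The higher gene was Dgat2, which makes triglyceride in the last step, with 156 and 162 TPM under LPS, compared with 66.9 and 73.0 TPM under norepinephrine (log2 difference 1.18 ± 0.14, adjusted p = 0.00323), and it was above saline (36.2 and 41.7 TPM) with both stimuli. Of 21 lipogenic genes 11 were lower and 3 higher (median -0.70). Fasn, fatty acid synthase, had 117 and 124 TPM with LPS, against 458 and 405 TPM with norepinephrine (log2 difference -1.83 ± 0.12, adjusted p = 0.000627). Acss2, which makes acetyl-CoA from acetate, had 27.6 and 26.1 TPM in the LPS libraries and 91.9 and 101 TPM in the norepinephrine libraries (log2 difference -1.80 ± 0.14, adjusted p = 0.00122). The desaturase Fads2 went the other way, with 68.0 and 53.2 TPM under LPS, compared with 20.9 and 23.5 TPM under norepinephrine (log2 difference 1.40 ± 0.13, adjusted p = 0.00174), as did Fads1 and the elongase Elovl6, a count of 3 that was 1 from the 4 libraries alone. In the fit of all 10 libraries the 8 lower genes numbered 5 and the 11 numbered 4, and Dgat2 missed the threshold (adjusted p = 0.139). Cholesterol genes leaned higher with LPS, 11 higher and 4 lower of 26 (median 0.24). Sqle, squalene epoxidase, had 27.4 and 29.5 TPM in the LPS libraries and 15.0 and 16.5 TPM in the norepinephrine libraries (log2 difference 0.82 ± 0.09, adjusted p = 0.00246). It passed as lower than saline with norepinephrine and not with LPS, with 26.7 and 26.2 TPM in the saline libraries. The exporter gene Abcg1 had the opposite order, at 29.2 and 25.7 TPM under LPS, compared with 44.1 and 47.2 TPM under norepinephrine (log2 difference -0.71 ± 0.09, adjusted p = 0.00464), and missed the threshold in the fit of all 10 libraries (adjusted p = 0.385). The 11 were 5 or 6 when any 1 library other than LPS replicate 2 was left out and in the fit of all 10, and 2 from the 4 libraries alone, and the 4 lower genes were 1 in the fit of all 10 and from the 4 alone.

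Adipocyte identity genes were lower with LPS in 23 of 31 tested and higher in 2 (median -1.02). The higher share was near the 6.18% of all tested genes, of which 10.7% were lower. Fabp4, the fatty acid carrier that is the most abundant adipocyte transcript here, had 4028 and 4384 TPM with LPS, against 11391 and 11802 TPM with norepinephrine (log2 difference -1.46 ± 0.14, adjusted p = 0.00173). Pparg, the master regulator of the fat cell, had 86.2 and 80.1 TPM in the LPS libraries and 122 and 125 TPM in the norepinephrine libraries (log2 difference -0.57 ± 0.08, adjusted p = 0.00679). Slc2a4, the insulin-driven glucose transporter, had 3.67 and 5.04 TPM under LPS, compared with 19.8 and 20.4 TPM under norepinephrine (log2 difference -1.99 ± 0.15, adjusted p = 0.00107). Adipoq, the hormone adiponectin, had 379 and 549 TPM with LPS, against 918 and 934 TPM with norepinephrine (log2 difference -1.02 ± 0.18, adjusted p = 0.0142), beside 925 and 1062 TPM with saline. Its call ended in the fit of all 10 libraries (adjusted p = 0.187), from the 4 libraries alone (0.0671) and without norepinephrine replicate 1 (0.0644) or 2 (0.0609). The 2 higher genes were early differentiation factors, both named after their values were seen. Cebpb had 219 and 196 TPM in the LPS libraries and 109 and 105 TPM in the norepinephrine libraries (log2 difference 0.95 ± 0.13, adjusted p = 0.00547). Cebpd had 93.8 and 96.5 TPM under LPS, compared with 55.2 and 60.0 TPM under norepinephrine (log2 difference 0.72 ± 0.09, adjusted p = 0.00386). Lep, the hormone leptin, was below the level for testing and stood at 0 and 0.0265 TPM with LPS, against 0.0110 and 0.0358 TPM with norepinephrine and 0.457 and 0.806 TPM with saline. Of 26 insulin and glucose uptake genes 11 were lower and 1 higher. Akt2, the kinase that relays the insulin signal in fat, had 78.4 and 82.8 TPM with LPS, against 160.1 and 166 TPM with norepinephrine (log2 difference -1.01 ± 0.09, adjusted p = 0.00138). The higher one was the binding protein Igfbp3 (log2 1.41). In the fit of all 10 libraries 9 adipocyte identity genes were lower, and Pparg missed the threshold (adjusted p = 0.162), as did Cebpb (0.0659). The insulin genes that were lower numbered 5 in that fit, 6 from the 4 libraries alone, 7 without LPS replicate 1 and 6 without norepinephrine replicate 1 or 2.

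**Figure D4:**
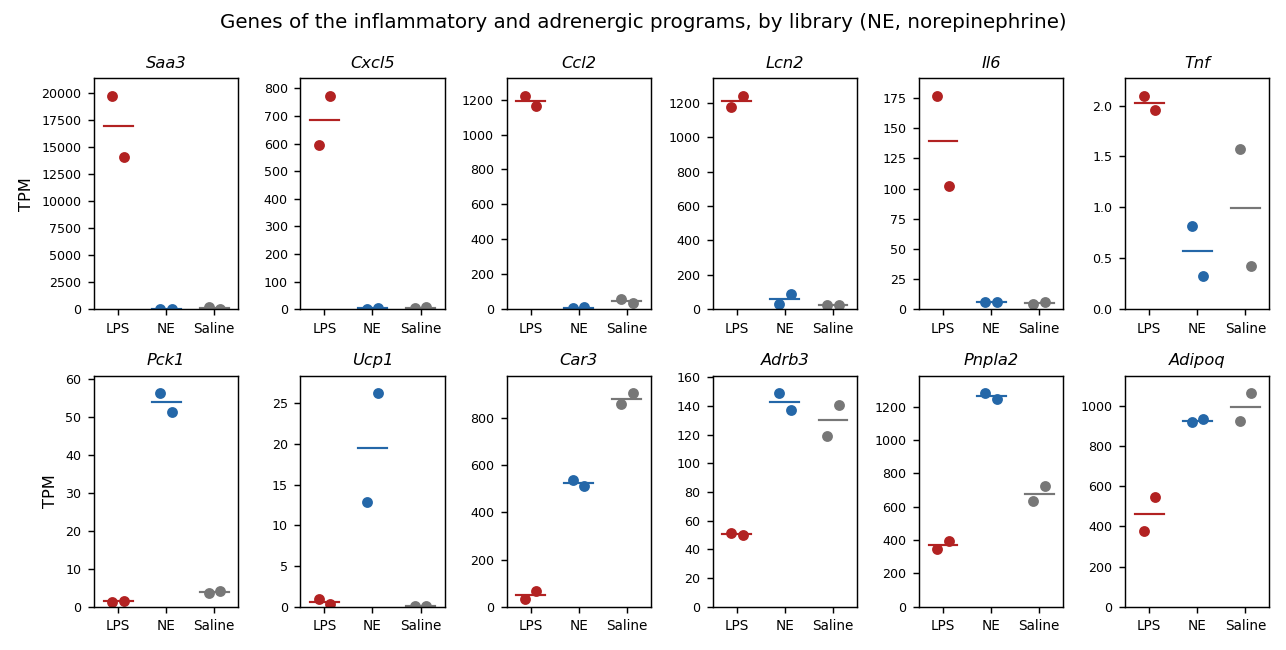
TPM of 12 genes in each library, on linear axes that start at 0, with LPS, norepinephrine (NE) and saline from left to right. Points are single libraries (replicate 1 left, replicate 2 right) and the line is their mean. The upper row shows inflammatory genes, highest with LPS, with Tnf at no more than 2.1 TPM, and the lower row shows genes lower with LPS, of which Pck1 and Ucp1 are high with norepinephrine alone while Adrb3 and Adipoq are close between norepinephrine and saline.

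The saline libraries place each gap. Both contrasts with saline share these 2 libraries, so their values are only set side by side. Against saline 969 genes (7.29%) passed with LPS and 874 (6.57%) with norepinephrine. Among the genes past the threshold in both, 12 were higher with LPS and lower with norepinephrine, and 42 were lower with LPS and higher with norepinephrine. Clusterin, Clu, a secreted chaperone, had 90.1 and 78.6 TPM with LPS, against 7.87 and 7.52 TPM with norepinephrine (log2 difference 3.29 ± 0.19, adjusted p = 0.000504), with saline between them at 23.3 and 16.4 TPM. Ccl7, a monocyte attractant, had 588 and 652 TPM in the LPS libraries and 36.0 and 47.7 TPM in the norepinephrine libraries (log2 difference 3.87 ± 0.15, adjusted p = 0.000344), with saline between them at 85.8 and 94.4 TPM. Cp, Ccl2, the adhesion molecule gene Chl1 (log2 2.18) and the membrane protein gene Gpm6b (log2 2.33) shared this order. In the other direction, Cyp4b1 had 0.783 and 1.11 TPM with LPS, against 12.5 and 12.6 TPM with norepinephrine (log2 difference -2.80 ± 0.17, adjusted p = 0.000587), with saline between them at 6.2 and 5.14 TPM. Adh1 had 7.25 and 10.9 TPM under LPS, compared with 67.1 and 62.3 TPM under norepinephrine, with saline at 33.9 and 34.4 TPM. Cspg4, a proteoglycan gene and pericyte marker, had 3.41 and 4.39 TPM in the LPS libraries and 18.3 and 23.1 TPM in the norepinephrine libraries, with saline at 9.61 and 8.56 TPM. Pck1, Pnpla2 and Mgll shared that order. These counts lean on single libraries. The 54 genes that moved in opposite directions numbered 1 without saline replicate 1, 2 without saline replicate 2, 7 and 9 without norepinephrine replicate 1 and 2, 28 without LPS replicate 1, and 2 in the fit of all 10 libraries. Against saline, 277 and 197 genes passed with LPS without saline replicate 1 and 2 and 409 without LPS replicate 1, and 46, 88, 142 and 141 with norepinephrine without saline replicate 1 and 2 and norepinephrine replicate 1 and 2. In the fit of all 10 libraries 557 passed with LPS and 109 with norepinephrine.

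A further 128 genes moved from saline in the same direction with both stimuli, 92 higher and 36 lower, and in 73 and 32 of these the interval between LPS and norepinephrine lay within 2-fold, as it did in 78.4% of all tested genes. The filter ignored saline. Genes below 1 TPM with both stimuli could not be counted as lower than saline, while genes raised from below 1 TPM could be counted as higher. Of the 92, 30 passed as different between LPS and norepinephrine, and of the 36, 4 did, where 16.8% of all tested genes passed. They numbered 5 without saline replicate 1, 10 without saline replicate 2, 28 and 26 without norepinephrine replicate 1 and 2, 64 without LPS replicate 1 and 24 in the fit of all 10 libraries. Among the higher ones, Fosl1, an AP-1 subunit, had 40.3 and 43.0 TPM with LPS, against 35.8 and 35.5 TPM with norepinephrine, over 19.5 and 14.5 TPM with saline, and its interval ran from -0.12 to 0.56. Ddit4, an inhibitor of the growth kinase mTORC1, had 149 and 133 TPM in the LPS libraries and 146 and 155 TPM in the norepinephrine libraries, over 72.9 and 64.4 TPM with saline, and the groups overlapped. Mt1, a metal-binding metallothionein, had 3284 and 2605 TPM under LPS, compared with 2485 and 1862 TPM under norepinephrine, over 1064 and 889 TPM with saline. The thiolase gene Acat3 had 6.06 and 7.15 TPM with LPS, against 8.57 and 10.1 TPM with norepinephrine, over 1.46 and 2.48 TPM with saline, with LPS below norepinephrine but no call between them. The receptor kinase gene Ryk and Slmapos2, an antisense transcript whose reads cannot be told from those of its partner without strand, completed these 6. Of the lower ones, Ddit3, the stress factor CHOP, had 38.5 and 43.3 TPM with LPS, against 44.1 and 43.3 TPM with norepinephrine, under 134 and 112 TPM with saline. Derl3, a channel component for protein disposal from the endoplasmic reticulum, had 6.02 and 5.81 TPM in the LPS libraries and 7.40 and 6.55 TPM in the norepinephrine libraries, under 33.0 and 22.7 TPM with saline. Atf5, a factor of the integrated stress response, had 56.8 and 97.7 TPM under LPS, compared with 79.0 and 99.0 TPM under norepinephrine, under 192 and 198 TPM with saline. Sertad4 and Herpud1, another disposal factor of the endoplasmic reticulum, also passed as lower than saline with both. Genes named for these shared moves were picked only among those with intervals within 2-fold, so their closeness was set by the rule. Trib3, a pseudokinase induced by CHOP, was lower than saline with both but lower still with LPS, at 7.18 and 9.57 TPM with LPS, against 12.9 and 13.8 TPM with norepinephrine (log2 difference -0.63 ± 0.14, adjusted p = 0.0256), a call that ended in the fit of all 10 libraries (adjusted p = 0.0761), from the 4 libraries alone (0.118), and without LPS replicate 1 (0.0594), norepinephrine replicate 1 (0.0824) or 2 (0.1), or either BAFF library (0.0549).

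**Figure D5:**
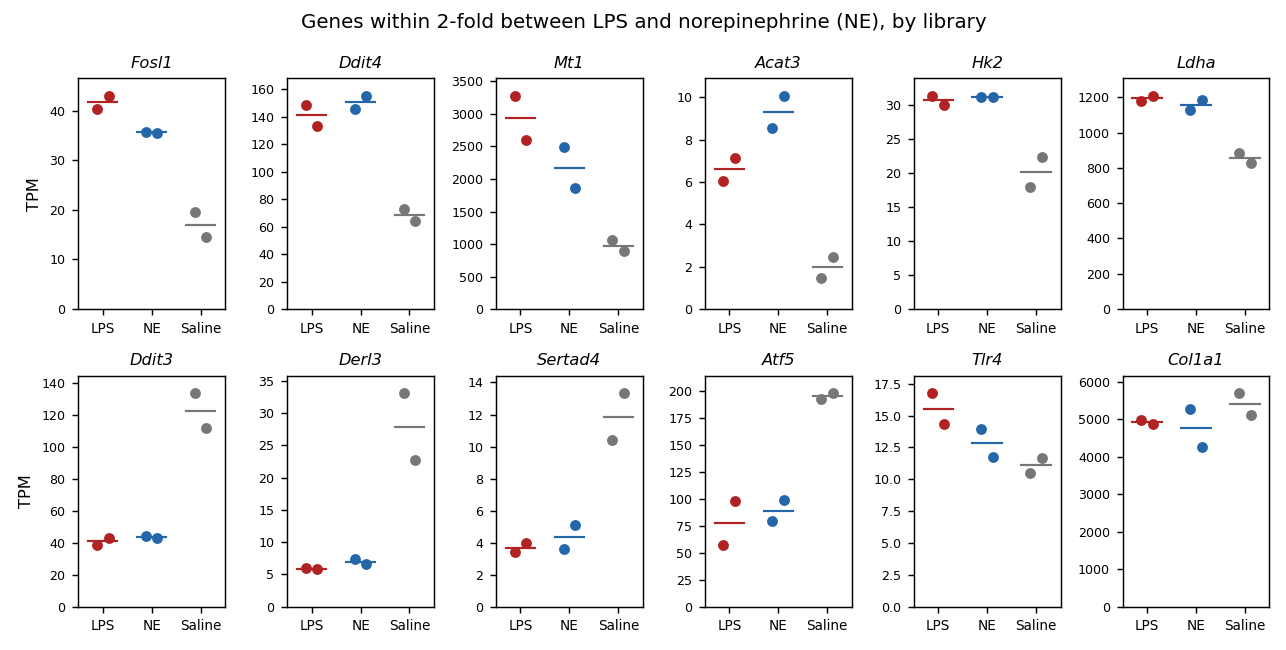
TPM of 12 genes whose 95% interval of the LPS minus norepinephrine difference lay within 2-fold, in each library, on linear axes that start at 0, with LPS, norepinephrine (NE) and saline from left to right. Points are single libraries (replicate 1 left, replicate 2 right) and the line is their mean. Fosl1, Ddit4, Mt1, Acat3, Hk2 and Ldha stood above saline with both stimuli, Ddit3, Derl3, Sertad4 and Atf5 below it with both, and Tlr4 and Col1a1 passed against saline with neither.

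The stress and glycolysis lists behind these genes held smaller shares within 2-fold than the 78.4% of all tested genes. Among all tested genes 6.18% were higher and 10.7% lower with LPS. Against saline, 4.81% were higher and 2.47% lower with LPS, and 5.33% higher and 1.24% lower with norepinephrine. The 969 and 874 genes that passed against saline became 557 and 109 in the fit of all 10 libraries. Of 39 tested genes that answer misfolded proteins or the integrated stress pathway 29 had their interval within 2-fold, 9 were higher and 3 lower with LPS (median 0.09), and 10 passed as lower than saline with LPS and 18 with norepinephrine. Chaperones of the endoplasmic reticulum were among the higher members. Sdf2l1, an endoplasmic reticulum cochaperone, had 36.8 and 45.2 TPM with LPS, against 13.9 and 19.3 TPM with norepinephrine (log2 difference 1.27 ± 0.18, adjusted p = 0.00686), below 79.0 and 66.0 TPM with saline, where norepinephrine alone passed. Hyou1, an endoplasmic reticulum chaperone of the HSP70 family, had 70.3 and 84.3 TPM in the LPS libraries and 41.4 and 45.9 TPM in the norepinephrine libraries (log2 difference 0.81 ± 0.11, adjusted p = 0.00623), and missed the threshold in the fit of all 10 libraries (adjusted p = 0.0579). Hspa5, the main such chaperone and named after its values were seen, had 539 and 714 TPM under LPS, compared with 314 and 392 TPM under norepinephrine (log2 difference 0.82 ± 0.16, adjusted p = 0.0186), under 1070.2 and 1002 TPM with saline, a call that ended without LPS replicate 2 (0.0583) or norepinephrine replicate 1 (0.0889), in the fit of all 10 libraries (0.167) or from the 4 libraries alone (0.0931). The 9 higher became 3 without norepinephrine replicate 1 and 2 from the 4 libraries alone or in the fit of all 10, and the 3 lower became 1 in each of these. Of 31 glycolysis and hypoxia genes 10 passed as higher than saline with LPS and 13 with norepinephrine, and 20 had their interval between the stimuli within 2-fold. In the direct comparison 3 were higher and 5 lower with LPS. Hk2, the inducible hexokinase, had 31.4 and 30.0 TPM with LPS, against 31.2 and 31.1 TPM with norepinephrine (log2 difference -0.02 ± 0.11, adjusted p = 0.919), over 17.9 and 22.3 TPM with saline. Ldha, lactate dehydrogenase, had 1179.9 and 1209.7 TPM in the LPS libraries and 1125 and 1183 TPM in the norepinephrine libraries (log2 difference 0.05 ± 0.09, adjusted p = 0.743), over 885 and 825 TPM with saline. Both were named after their values were seen. The factor Hif1a itself was apart, with 214 and 223 TPM under LPS, compared with 102 and 105 TPM under norepinephrine (log2 difference 1.07 ± 0.08, adjusted p = 0.000946). The glycolytic activator Pfkfb3 had 80.0 and 66.7 TPM with LPS, against 133 and 111 TPM with norepinephrine (log2 difference -0.73 ± 0.13, adjusted p = 0.013), without a call when norepinephrine replicate 1 was left out (adjusted p = 0.0662). The 5 lower genes numbered 0 without norepinephrine replicate 1 and in the fit of all 10 libraries, 1 without norepinephrine replicate 2 or LPS replicate 2, and 2 without LPS replicate 1 or from the 4 libraries alone.

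Ribosomal, proteasome and heat-shock genes lay close, set against 78.4% of all tested genes within 2-fold and 48.4% within 1.5-fold. Calls over all tested genes were 6.18% higher and 10.7% lower with LPS. Of 70 cytosolic ribosomal protein genes 68 had intervals within 2-fold and 59 within 1.5-fold, with 0 higher and 1 lower, Rpl9 (log2 -0.40), a gene with close copies, whose call ended without LPS replicate 1 (adjusted p = 0.0642) or 2 (0.0846), norepinephrine replicate 1 (0.126) or either saline library (0.0509 and 0.0511). In 38 of the 70 ribosomal genes both LPS libraries lay below both norepinephrine libraries, where 33.3% of all genes do. In 5 they lay above, and the median log2 difference was -0.11. All 30 tested proteasome genes lay within 2-fold, 3 higher and 1 lower. Their median of 0.25 sat above that of all genes, and 25 of the 30 had both LPS libraries above both norepinephrine libraries, where 22.7% of all genes do. With median-ratio scaling 14 proteasome genes passed as higher. The 3 were 1 in the fit of all 10 libraries, with no trend and when any 1 library other than LPS replicate 1 or norepinephrine replicate 2 was left out, and 0 from the 4 libraries alone. The 1 lower gene lost its call in each of these settings and without either of those 2 libraries. Of 21 cytosolic heat-shock chaperones 20 lay within 2-fold, 2 higher and 0 lower. The 2 were 1 in the fit of all 10 libraries and without any 1 LPS or BAFF library or norepinephrine replicate 1, and 0 from the 4 libraries alone, and 1 was lower without LPS replicate 2. Stip1, a cochaperone that links HSP70 and HSP90, had 78.8 and 96.1 TPM with LPS, against 44.4 and 51.8 TPM with norepinephrine (log2 difference 0.85 ± 0.12, adjusted p = 0.00633). Of 21 collagen chains 18 lay within 2-fold. Col1a1, a chain of type I collagen, had 4994 and 4874 TPM in the LPS libraries and 5278 and 4271 TPM in the norepinephrine libraries (log2 difference 0.06 ± 0.15, adjusted p = 0.839). Sparc, a matrix glycoprotein, had 3797 and 3424 TPM under LPS, compared with 3585 and 3229.9 TPM under norepinephrine (log2 difference 0.08 ± 0.13, adjusted p = 0.702). Both were named after their values were seen, and their groups overlapped. Of 22 p53 targets 18 lay within 2-fold, a share near that of all tested genes. Fas, a death receptor, had 32.8 and 36.3 TPM with LPS, against 10.7 and 9.53 TPM with norepinephrine (log2 difference 1.68 ± 0.13, adjusted p = 0.00119) and was 1 of the 3 higher members, with 1 lower. The higher count was 1 without LPS replicate 2 or any 1 saline or norepinephrine library and from the 4 libraries alone. The lower count was 0 in the fit of all 10 libraries, from the 4 libraries alone, with median-ratio scaling and without any 1 LPS or saline library or norepinephrine replicate 1.

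Matrix, clock, growth factor and cell cycle lists held called members in both directions, with smaller shares within 2-fold than the 78.4% of all tested genes. Of all tested genes 6.18% were higher and 10.7% lower with LPS. Lower members of the matrix protease, NRF2 and cell cycle lists made up smaller shares than that, as did higher members of the cell cycle list. Dcn, the collagen-binding proteoglycan decorin, had 1184 and 682 TPM with LPS, against 157 and 110.4 TPM with norepinephrine (log2 difference 2.76 ± 0.33, adjusted p = 0.00383), in a list of 37 matrix glycoproteins with 5 higher and 5 lower. The higher count was 3 in the fit of all 10 libraries and without LPS or norepinephrine replicate 1, and 1 without norepinephrine replicate 2 or any 1 saline or BAFF library and from the 4 libraries alone. The lower count was 3 without LPS replicate 2 and 2 without norepinephrine replicate 1 or from the 4 libraries alone. Timp1, an inhibitor of matrix proteases, had 4388 and 3121 TPM in the LPS libraries and 1260.1 and 1304 TPM in the norepinephrine libraries (log2 difference 1.53 ± 0.18, adjusted p = 0.0038). Adamts9, a secreted protease, had 14.7 and 19.1 TPM under LPS, compared with 4.04 and 4.84 TPM under norepinephrine (log2 difference 1.71 ± 0.15, adjusted p = 0.00138). Their list gave 6 higher (3 from the 4 libraries alone) and 2 lower of 27, and the 2 were 0 from the 4 libraries alone or without norepinephrine replicate 1 and 1 without LPS replicate 1 or norepinephrine replicate 2. The fibril-binding Fmod (log2 -0.76) and the cartilage matrix protein gene Cilp (log2 -1.06) were lower with LPS, Cilp without a call when norepinephrine replicate 1 was left out (adjusted p = 0.0602). Of 18 clock genes 6 were lower and 2 higher with LPS. Per3, a repressor of the clock, had 9.10 and 7.89 TPM with LPS, against 22.4 and 22.1 TPM with norepinephrine (log2 difference -1.30 ± 0.09, adjusted p = 0.000869). Dbp, an output factor, had 51.4 and 27.9 TPM in the LPS libraries and 114 and 103 TPM in the norepinephrine libraries (log2 difference -1.49 ± 0.25, adjusted p = 0.0113). Nr1d1, a repressor named after its values were seen like Arntl, had 26.1 and 18 TPM under LPS, compared with 44.3 and 37.4 TPM under norepinephrine (log2 difference -0.88 ± 0.18, adjusted p = 0.0221). Arntl, the activator BMAL1 that Nr1d1 represses, had 5.42 and 8.46 TPM with LPS, against 2.71 and 3.20 TPM with norepinephrine (log2 difference 0.98 ± 0.19, adjusted p = 0.0182). Dbp, Nr1d1 and Arntl lost their calls without norepinephrine replicate 1 (adjusted p = 0.0603, 0.107 and 0.0889), and the 6 lower genes then numbered 2. Arntl also lost its call without norepinephrine replicate 2 (adjusted p = 0.0511), and 1 clock gene was lower from the 4 libraries alone. The 2 higher clock genes were 0 without norepinephrine replicate 1 or 2 and from the 4 libraries alone. Of 28 Wnt, TGF-beta and BMP family genes 5 were higher and 4 lower, against 3 and 2 from the 4 libraries alone and 2 lower without norepinephrine replicate 1. Fst, the activin trap follistatin, had 35.7 and 39.9 TPM in the LPS libraries and 12.1 and 16.7 TPM in the norepinephrine libraries (log2 difference 1.34 ± 0.15, adjusted p = 0.00317). Tgfb3, a TGF-beta ligand, had 10.7 and 8.89 TPM under LPS, compared with 21.0 and 19.5 TPM under norepinephrine (log2 difference -0.98 ± 0.12, adjusted p = 0.00383). Of 17 glucocorticoid targets 4 were higher and 4 lower. The higher count was 2 when any 1 library other than LPS replicate 2 was left out, the lower count 2 without LPS replicate 2 or in the fit of all 10 libraries, and each was 1 from the 4 libraries alone. Pdk4, which spares glucose by blocking pyruvate dehydrogenase, had 34.1 and 25.3 TPM with LPS, against 144 and 125 TPM with norepinephrine (log2 difference -2.15 ± 0.20, adjusted p = 0.00169), over 12.4 and 15.1 TPM with saline, so both stimuli stood above the controls. Its call missed the threshold in the fit of all 10 libraries (adjusted p = 0.067). Of 36 cell cycle genes 1 was higher and 1 lower, although their median was 0.59. Without norepinephrine replicate 2, 14 passed as higher and the median was 1.01, without norepinephrine replicate 1 the median was 0.26, and the higher count was 0 without LPS replicate 2 or from the 4 libraries alone. Tyms, which makes thymidylate, had 28.1 and 33.2 TPM in the LPS libraries and 7.18 and 14.3 TPM in the norepinephrine libraries (log2 difference 1.5 ± 0.30, adjusted p = 0.0193), a call that ended without LPS replicate 1 (0.0561) or 2 (0.0813). Cdkn2c, an inhibitor of cyclin-dependent kinases, had 24.7 and 28 TPM under LPS, compared with 61.1 and 53.6 TPM under norepinephrine (log2 difference -1.09 ± 0.10, adjusted p = 0.0016). Of 25 NRF2 antioxidant targets 5 were higher and 2 lower. Txnrd1, thioredoxin reductase, had 55.1 and 48.8 TPM with LPS, against 30.6 and 30.8 TPM with norepinephrine (log2 difference 0.74 ± 0.09, adjusted p = 0.0036) and missed the threshold in the fit of all 10 libraries (adjusted p = 0.0922). The 5 numbered 3 when any 1 library other than LPS replicate 2 was left out, and 2 in the fit of all 10 or from the 4 libraries alone, and the 2 lower became 0 in the fit of all 10.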

How the data were processed

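RNA was sequenced from 10 libraries of cells grown from mouse inguinal fat, 2 for each of LPS, norepinephrine, BAFF, APRIL and saline. The authors deposited 1 table of TPM per gene, with no counts used here, so depth is unknown and its precision cannot be given. kallisto and the mm10 build are named in the submitters' processing notes, with no version. Gene names were matched from GENCODE M21 for 27458 of 28987 IDs. TPM are relative, so a large rise of some genes lowers all others.

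Groups follow the sample titles. From the deposited TPM, log2(TPM + 1) was fitted with limma 3.58.1 (R 4.3.3) on 8 libraries in 4 groups, with a mean-variance trend and no replicate block, leaving 4 residual degrees of freedom. The 2 APRIL libraries entered an alternative only. Genes had at least 1 TPM in at least 2 of the 4 LPS and norepinephrine libraries. Saline levels were not used in this filter, which limits the genes that could be called lower than saline. The adjusted p-values quoted are all from limma with Benjamini-Hochberg adjustment, called at 0.05, two-sided, and errors beside differences are standard errors with n = 2 libraries a group. The pipeline was tested on simulated data. Tables and figures used Python 3.11.15, pandas 2.3.3 and matplotlib 3.10.9.

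The comparison, the 48 gene lists and the rules were chosen with earlier results of these data known. Genes named are the 12 largest differences each way with a mean of at least 5 TPM and no overlap (unnamed gene models and pseudogenes skipped), up to 4 of smallest p in each list, the 6 largest in each pattern against saline, and fixed receptors and hormones. For patterns of the same direction with both stimuli, only genes with intervals within 2-fold between the stimuli were eligible. Others are marked as named after values were seen, and a few that the rule names are not reported here. Motifs were searched in RefSeq promoters (GRCm38.p6), matched by symbol for 9658 of 13058 tested genes with one. The window nearest the annotated gene start was taken, with no limit on the distance. Alternatives changed the libraries in the spread, pseudocount, filter, scaling, minimum fold, trend and block, or left out 1 library at a time.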

Additional observations from a re-analysis of the deposited data

How the results depend on the processing

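The 821 higher and 1416 lower genes became 532 and 632 in the fit of all 10 libraries, 277 and 470 from the 4 libraries alone, and 126 and 122 against a minimum of 1.5-fold, and ranged over 368 to 619 and 649 to 1089 with 1 library left out. Pseudocounts, filters, scaling, mitochondrial genes and trend kept both counts within 1.5 times. Replicate number as a block gave 1323 and 1930 genes, among them all 2237, and called 4 macrophage markers, 11 cell cycle genes and 11 proteasome genes higher with LPS; same-numbered libraries of 2 groups deviated together (correlations 0.308 to 0.517), but the labels tie no numbers together and there are only 2. Against saline, the fit of all 10 libraries gave 557 genes with LPS and 109 with norepinephrine, 24 moved by both in 1 direction and 2 in opposite ones. With 1 library left out these ranged over 197 to 850, 46 to 957, 5 to 140 and 1 to 40. The genes within 2-fold, not counted under other filters, without mitochondrial genes or against a minimum fold, numbered 9387 to 10979 otherwise. Of 177 named genes 157 passed, 78 of them under every alternative and 128 whichever library was left out. No passing gene changed sign. Median-ratio scaling turned Herpud1 (log2 0.053) and Hk2 (0.040), both without a call. Leaving out 1 library, differences without a call ranged over -0.50 to 0.59 for Adra2a, -0.63 to 0.14 for Atf5, -0.10 to 0.21 for Col1a1, -0.19 to 0.21 for Cpt1a, -0.35 to 0.33 for Herpud1, -0.054 to 0.010 for Hk2, -0.34 to 0.14 for Ryk, -0.38 to 0.024 for Sertad4 and -0.14 to 0.45 for Slmapos2. With 1 library left in a group, that library is assumed to vary like the others. The cause of these shifts was not tested. Depth is unknown, so genes near 1 TPM are the least certain.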
